A study of Mus musculus with 6 samples.

Results

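The genes described here are 32 genes of the unfolded protein response and the integrated stress response in mTECs, an immortalised line of mouse renal tubular epithelial cells. The sample labels describe these cells as magnetically sorted. The genes were picked by name, as the genes of the deposited table whose symbol in the GENCODE M21 mouse annotation is on a list of 13 chaperones and folding enzymes of the endoplasmic reticulum (ER), 4 genes of ER-associated degradation, 5 stress sensors and their direct factors, and 10 genes of the Atf4 and Ddit3 branch. These 32 symbols took up 33 of the 22442 rows of the table, because Ddit3 has a second row. RNA was sequenced in 6 libraries, all from cells given lipopolysaccharide (LPS), a bacterial cell wall component, at 20 μg/ml for 24 h. The LPS group (3 libraries) received a negative control by transfection before LPS, and the LPSKD group (3 libraries) received an RNA against Stat3, described as an siRNA in the labels and listed as an shRNA in the study's supplement. No library without LPS is among them, so that the values compare 2 LPS-treated groups and do not show what LPS did to these genes.

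The unfolded protein response begins when unfolded proteins build up in the ER. The sensors Ern1 (IRE1), Atf6 and Eif2ak3 (PERK) then signal to the nucleus, Ern1 by splicing the Xbp1 transcript, Atf6 by releasing its own cytosolic part, and Eif2ak3 by phosphorylating the translation factor eIF2. The Xbp1 and Atf6 arms raise ER chaperones and degradation genes, whereas phosphorylated eIF2 slows translation in general and favours translation of Atf4, which in turn raises Ddit3 (CHOP) and genes of amino acid supply. Other eIF2 kinases feed into the same Atf4 branch without ER stress, which is why the chaperones and the Atf4 branch can be read as separate outputs.

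The paper reports that the silencing lowered Stat3 in mTECs, by real-time PCR and western blot. In the values of these libraries, the transcript of this target did not separate the groups. Stat3 was at 33.7 ± 2.02 FPKM (SD, n = 3) in the LPS-labelled libraries and at 33.4 ± 2.35 FPKM (SD, n = 3) in the LPSKD-labelled ones, with a log2 fold change of −0.01 ± 0.07 (SE, limma adjusted p = 0.944). They are therefore named by their labels only, as LPS-labelled and LPSKD-labelled libraries, and each direction below rests on those labels. FPKM are fragments scaled to the length of the gene and to all fragments of the library, so that levels can be compared between genes per length. Fragments recovered from these values gave library totals between 24084829 and 25422169, and the 32 genes had between 190 and 41056 fragments in a library. Nothing in the labels says that the 3 libraries of a group came from separate experiments, so that the p-values measure the spread between these libraries, which may be technical. Epithelial markers were high in every library (summed FPKM of 6 genes from 4654 to 4764 in the LPS-labelled libraries and from 4421 to 4523 in the LPSKD-labelled ones). Of the 6 proximal tubule markers, 4 were under a mean FPKM of 0.5, and 2 of these were at 0 in every library. The summed FPKM of the 6 was 4.80 to 6.24 against 7.72 to 10.4. Most of it was Aqp1, at 3.90 to 5.12 FPKM against 6.84 to 9.20, and Cubn had means of 0.951 and 0.938 FPKM. The summed level of 8 immune cell markers was 58.2 to 64.8 FPKM against 61.4 to 74.8. Most of this sum came from Csf1r (22.0 to 33.8 FPKM over all libraries), Lyz2 (17.3 to 27.3) and Cd68 (9.64 to 15.0). The leukocyte marker Ptprc lay between 0.372 and 1.08 FPKM. The summed level of 8 fibroblast and endothelial markers was 25.8 to 34.3 against 18.2 to 33.4. Krt18 was lower in the LPSKD-labelled libraries, and Csf1r and Aqp1 were higher (limma, adjusted p = 0.0319, 0.0208 and 0.0174), calls that held in 1, 2 and 3 of the 6 fits with 1 library left out. The part of these markers in the results below was not tested, and in such bulk libraries fewer cells of a type and less RNA per cell cannot be told apart.

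The promoters of the members are given before their values. RefSeq windows of GRCm38.p6, from 250 bases before to 50 bases after the annotated start, were at hand for 29 of the 32 genes (30 windows, with 2 for Atf5), and were searched on both strands. The ER stress response element (ERSE), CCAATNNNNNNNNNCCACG, is the classical site of Atf6 with the CCAAT-binding factor NF-Y. It was found in 7 of the 11 chaperone and folding genes with a window and in Syvn1, against 39 of all 32851 windows (0.119%). These 9 sites are shown with each written in the direction of the motif. The letters in capitals are those searched for, so that they are alike in every site by the search itself.
Hspa5: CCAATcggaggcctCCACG
Hsp90b1, upstream site: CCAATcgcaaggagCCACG
Hsp90b1, downstream site: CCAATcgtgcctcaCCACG
Dnajc3: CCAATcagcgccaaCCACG
Calr: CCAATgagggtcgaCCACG
Canx: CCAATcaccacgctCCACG
Pdia6: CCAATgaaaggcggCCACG
Creld2: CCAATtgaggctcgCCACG
Syvn1: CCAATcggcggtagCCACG

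None of the 10 genes of the Atf4 and Ddit3 branch held an ERSE in its window. The shorter element ERSE-II, in which ATTGG and CCACG are separated by 1 base, was found in Herpud1 only among the members (ATTGGgCCACG), against 0.0365% of all windows. The core of the C/EBP-ATF response element (CARE), TGATGNAA, at which Atf4 pairs with C/EBP factors, was found in Asns, Chac1, Nupr1 and Trib3, which are 4 of the 10 branch genes, and in Herpud1. None of the 11 chaperone windows held it, and 3.97% of all windows did. The palindrome TTCNNNGAA, bound by Stat factors, was found in Nupr1 and Eif2ak3, that is in 2 of 29 genes (6.90%), a share close to the 8.30% of all windows. ERSE and ERSE-II share letters at their ends, but no site of one overlapped a site of another motif in these windows. The Nupr1 STAT match lies at positions −128 to −120 from the start, and its CARE match at −110 to −103. Such matches are letters in a window and not shown to be bound here, and the absence of a match says only that these letters are not in that window.

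**Figure D1:**
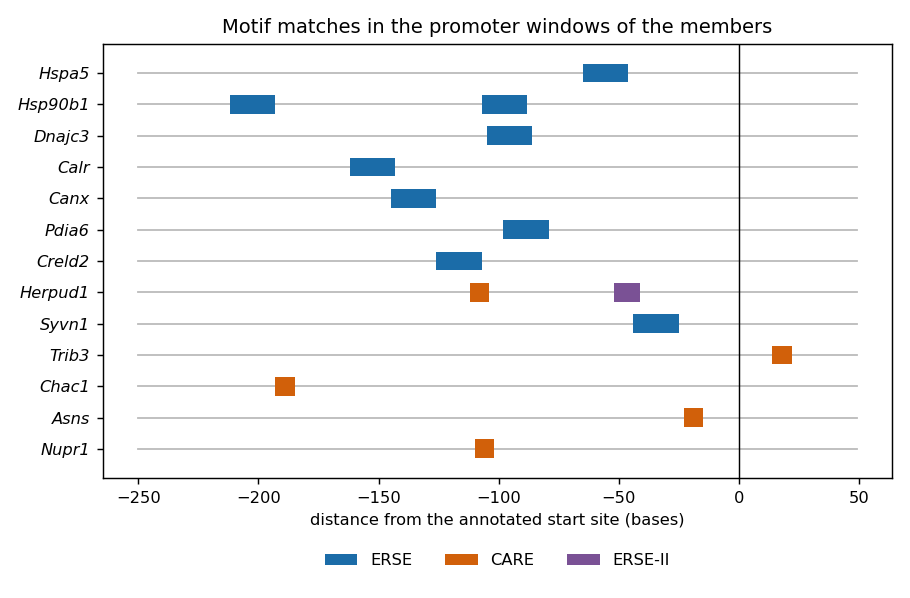
ERSE, CARE and ERSE-II matches in the promoter windows of the 13 member genes that hold any of them, with the distance from the annotated start site in bases on the horizontal axis and 1 line per gene. ERSE matches (blue) fall in chaperone genes and Syvn1, CARE matches (orange) in 4 Atf4 branch genes and Herpud1, and only Herpud1 carries a CARE and an ERSE-II match (purple).

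The 250 bases before the start are shown for 5 genes. Hspa5 and Hsp90b1 stand for the chaperones, and Nupr1, Herpud1 and Ppp1r15a are the 3 members that differed between the groups. The bases are written along the gene, with ERSE in capitals for the first pair, CARE for Nupr1 and both CARE and ERSE-II for Herpud1. Ppp1r15a has no capitals, since its window held no match to any of the 4 motifs. Sites read from the opposite strand appear as their reverse complement, such as TTGCATCA for CARE.
Hspa5, chr2:34771840-34772089, plus strand: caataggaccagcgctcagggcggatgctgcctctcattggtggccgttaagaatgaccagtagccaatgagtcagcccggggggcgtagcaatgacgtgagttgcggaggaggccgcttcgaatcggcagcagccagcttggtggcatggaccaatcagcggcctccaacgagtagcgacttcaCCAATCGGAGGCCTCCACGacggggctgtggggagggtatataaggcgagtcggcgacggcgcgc
Hsp90b1, chr10:86705445-86705694, minus strand: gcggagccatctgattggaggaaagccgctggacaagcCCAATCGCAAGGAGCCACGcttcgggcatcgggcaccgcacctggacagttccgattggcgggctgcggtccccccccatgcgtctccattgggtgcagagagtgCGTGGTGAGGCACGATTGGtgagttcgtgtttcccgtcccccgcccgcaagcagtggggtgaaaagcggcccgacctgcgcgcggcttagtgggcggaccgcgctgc
Nupr1, chr7:126625471-126625720, minus strand: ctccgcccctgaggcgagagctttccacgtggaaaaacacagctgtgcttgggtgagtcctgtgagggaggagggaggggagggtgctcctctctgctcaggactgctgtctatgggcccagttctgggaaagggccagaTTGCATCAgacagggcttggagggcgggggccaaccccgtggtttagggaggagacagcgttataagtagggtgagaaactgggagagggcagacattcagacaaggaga
Herpud1, chr8:94386179-94386428, plus strand: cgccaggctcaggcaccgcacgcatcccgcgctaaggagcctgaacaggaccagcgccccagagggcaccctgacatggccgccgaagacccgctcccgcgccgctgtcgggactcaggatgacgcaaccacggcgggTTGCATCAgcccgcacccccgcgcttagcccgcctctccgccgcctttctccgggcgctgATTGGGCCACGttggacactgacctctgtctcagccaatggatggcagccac
Ppp1r15a, chr7:45526269-45526518, minus strand: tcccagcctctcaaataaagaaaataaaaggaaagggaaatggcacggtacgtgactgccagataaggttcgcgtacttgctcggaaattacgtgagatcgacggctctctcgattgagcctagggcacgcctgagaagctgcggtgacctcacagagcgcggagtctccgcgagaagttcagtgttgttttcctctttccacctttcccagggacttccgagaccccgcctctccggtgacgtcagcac

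All 32 genes passed the filter on low values (a mean of at least 0.5 FPKM over the 6 libraries), and 3 of them had an adjusted p under 0.05 in limma. Nupr1 was higher in the LPSKD-labelled libraries, and Ppp1r15a and Herpud1 were lower. Over all 11723 genes tested, 379 passed the same test (3.23%), with 184 higher (1.57%) and 195 lower (1.66%). The 2 groups did not overlap in 11 of the 32 genes (5 higher, 6 lower), against 23.8% of all genes tested. An unadjusted p under 0.05 was reached by 9 of the 32, against 17.6% of all genes tested. The median log2 fold change of the 32 genes was 0.02, and that of all genes tested was −0.01.

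By level, Hsp90b1, Atf4 and Calr headed the list, at 660.2, 638.5 and 555.9 FPKM in the LPS-labelled libraries, and each stood above 98.5% of the genes tested. Pdia3, Canx, Hspa5 and Nupr1 followed, between 317.9 and 468.1 FPKM. The levels of Canx and Hspa5 did not differ beyond their spread (432.2 ± 17.8 and 420.7 ± 10.6 FPKM, SD, n = 3 each). The lowest levels were those of Ern1, at 12.4 ± 0.209 FPKM, and Sdf2l1, at 13.8 ± 2.05 FPKM (SD, n = 3 each). With the exception of Xbp1 and Atf6, the sensors and their factors lay under 25 FPKM.

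**Figure D2:**
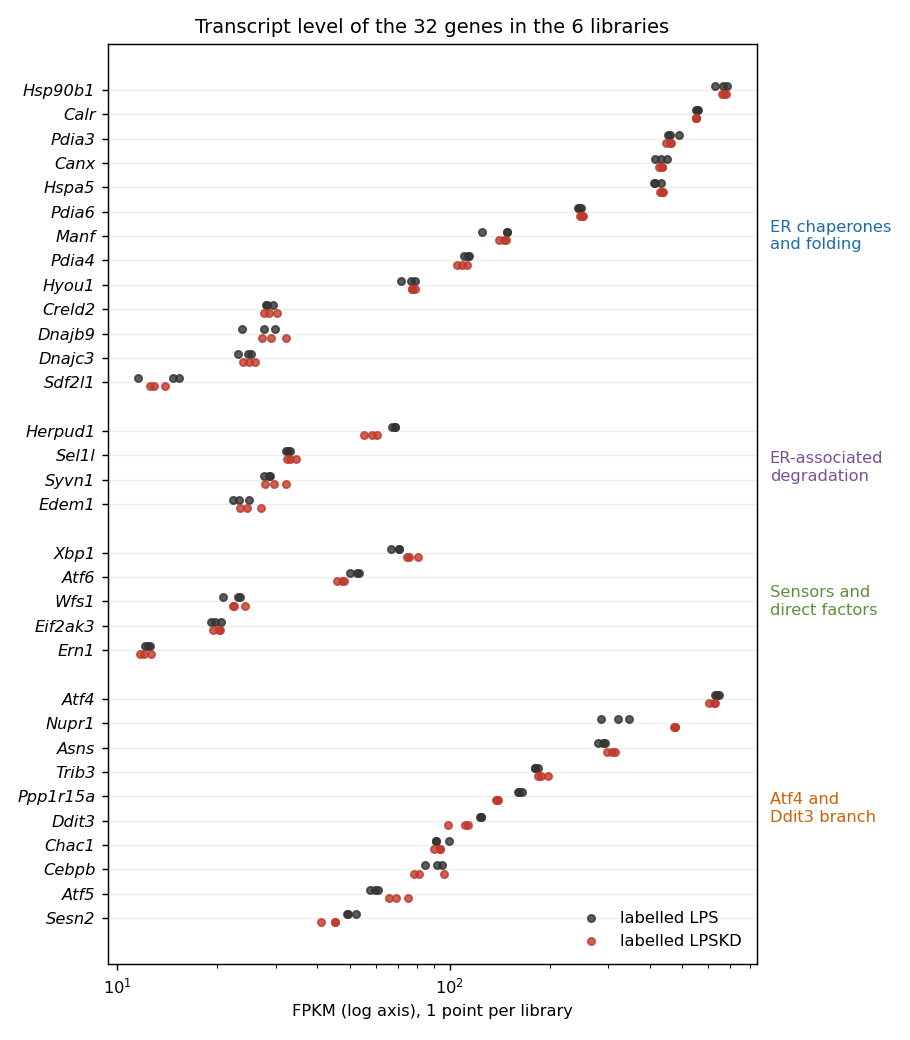
FPKM of the 32 genes in each of the 6 libraries on a log axis, with 1 point per library, black for LPS and red for LPSKD, and with genes ordered by level within each of the 4 lists. Values of the 2 groups overlap in all 13 chaperone genes and do not overlap in 8 of the 10 genes of the Atf4 and Ddit3 branch. The nearest values of the groups are almost equal in Atf4 (629.6 FPKM in LPS, 629.0 in LPSKD) and Trib3 (184.1 in LPS, 184.2 in LPSKD).

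None of the 13 ER chaperones and folding enzymes passed the test, where 3.23% of all genes tested did, so that 0 calls among 13 genes are near that share. The groups overlapped in every one of the 13, whereas they were apart in 23.8% of all genes tested. Hspa5 (BiP), the main ER Hsp70 and the usual reporter of ER stress, was at 416.6, 432.7 and 412.8 FPKM in the LPS-labelled libraries and at 428.8, 438.9 and 435.5 in the LPSKD-labelled ones. The log2 fold change of Hspa5, 0.05 ± 0.03 (SE, limma adjusted p = 0.506), had a 95% confidence interval from −1.86% to 8.68% in level. Hsp90b1 (Grp94), the Hsp90 of the ER, had means of 660.2 ± 27.3 and 669.7 ± 7.89 FPKM (SD, n = 3 each) and an interval of the change from −4.31% to 7.66%. Both carry ERSE sites in the promoters shown above, and both groups overlapped for each of them.

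The lectin chaperones of the calnexin cycle were as close. Calr was at 554.4, 560.9 and 552.5 FPKM against 553.2, 550.5 and 553.3, and the ranges of the groups overlapped. Canx had means of 432.2 and 432.4 FPKM, and the interval of its fitted change on log2(FPKM + 0.1) ran from −5.63% to 6.16%. Among the disulphide isomerases, Pdia3 went from 468.1 to 458.5 FPKM and Pdia4 from 112.6 to 109.3, while Pdia6 went from 245.6 to 249.9, with adjusted p of 0.759, 0.627 and 0.734 in limma. For the 6 genes of this list above 200 FPKM, the intervals lay between −7.81% and 8.68%, so that a larger difference between the groups was outside the interval for each of them.

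The remaining folding genes were lower and less precise. Hyou1, an Hsp110-type exchange factor for Hspa5, was at 75.6 ± 3.71 and 77.6 ± 0.990 FPKM (SD, n = 3 each). The Hspa5 co-chaperones Dnajb9 and Dnajc3 had log2 fold changes of 0.12 and 0.03, and Sdf2l1, another partner of Hspa5, had −0.07. Manf and Creld2, secreted ER proteins that rise in ER stress, had 0.05 and 0.02. The widest intervals were those of Sdf2l1, from −20.0% to 14.2%, and Dnajb9, from −6.28% to 26.5%, both with at most 545 fragments in a library.

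Replicate 1 of the LPS-labelled libraries was the lowest of the 6 libraries in 6 of the 13 chaperone genes. Manf was at 124.8 FPKM in it and at 148.6 and 149.0 in the other LPS libraries, where the LPSKD-labelled libraries had 146.3, 140.9 and 148.3. Averaged over the 13 genes, the deviation from the LPS mean was −0.06, 0.04 and 0.02 on the log2 scale in the LPS-labelled libraries and 0.02, 0.01 and 0.02 in the others. The median log2 fold change of the list was 0.02, and −0.01 without that library.

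Of the 4 genes of ER-associated degradation, by which misfolded proteins are passed to the proteasome, Herpud1 was lower in the LPSKD-labelled libraries. Herpud1, a membrane protein that organises the ubiquitin ligase complex, lies on chromosome 8 of GRCm38 from 94386438 to 94395377. It was at 67.0, 68.4 and 68.6 FPKM in the LPS-labelled libraries and at 60.7, 55.2 and 58.3 in the LPSKD-labelled ones, so that each of the latter was under each of the former. The fall was by 14.6% (95% confidence interval from −20.6% to −8.19%), a log2 fold change of −0.23 ± 0.05 (SE, limma adjusted p = 0.0378). This call was close to the threshold. Leaving out any 1 of the 6 libraries gave an adjusted p between 0.0546 and 0.141, and the log2 fold change then lay between −0.26 and −0.19. The call was also lost without the filter on low values (adjusted p = 0.0540 from limma) and without the trend in eBayes (adjusted p = 0.115 from limma). The 3 other genes, Sel1l and Syvn1 of the ligase itself and Edem1, which picks out mannose-trimmed clients, had log2 fold changes of 0.03, 0.08 and 0.09 and overlapping groups (adjusted p = 0.782, 0.582 and 0.594 from limma).

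None of the 5 sensors and direct factors passed the test (3.23% of all genes tested did). The groups did not overlap for 2 of the 5, in opposite directions, against 23.8% of all genes tested. Xbp1, the factor that Ern1 activates by splicing, was at 66.6, 70.4 and 70.5 FPKM against 80.2, 75.4 and 74.3. Its value was 10.8% higher in the LPSKD-labelled libraries, with an interval from 3.005% to 19.1% (log2 fold change 0.15 ± 0.05, SE, limma adjusted p = 0.146). The gene value does not separate the spliced from the unspliced transcript. Atf6 was at 50.2, 52.8 and 53.4 FPKM against 45.7, 47.6 and 48.0, a log2 fold change of −0.15 ± 0.05 (SE, limma adjusted p = 0.146). The kinases Ern1 and Eif2ak3 had log2 fold changes of −0.03 and 0.02, and Wfs1, an ER membrane protein that restrains Atf6 signalling, had 0.03, each with overlapping groups and an adjusted p between 0.848 and 0.912. The activity of Ern1, Atf6 and Eif2ak3 is set on the protein, which these transcript levels do not measure.

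The 10 genes of the Atf4 and Ddit3 branch spread more widely and in both directions, with Nupr1 higher and Ppp1r15a lower. In 8 of the 10 the groups did not overlap (4 higher, 4 lower), where the background is 23.8%, and 6 of the 10 had an unadjusted p under 0.05, where it is 17.6%. The median of the absolute log2 fold changes was 0.15 in this branch, 0.03 in the chaperones and 0.09 over all genes tested. The median signed log2 fold change was −0.04, with 4 values above 0 and 6 below. The standard errors of the 2 lists were similar, with medians of 0.05 and 0.04, but that of all genes tested was 0.08. All genes tested are therefore not a background matched in precision, and smaller differences set the groups apart in these lists. These are counts and medians of lists drawn up with results of these libraries known, and the difference between the lists was not tested.

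Among the factors, Atf4 itself hardly differed. It was at 629.6, 649.4 and 636.5 FPKM in the LPS-labelled libraries and 629.0, 624.9 and 604.9 in the others, with groups that were apart by less than 1 FPKM (log2 fold change −0.04 ± 0.03, SE, limma adjusted p = 0.530). Atf4 is controlled mostly through its translation. Ddit3 (ENSMUSG00000025408, chromosome 10 of GRCm38, from 127290774 to 127296288), a pro-apoptotic factor downstream of Atf4, was at 123.1, 124.3 and 124.6 FPKM against 113.5, 111.2 and 99.1. All 3 LPSKD-labelled libraries were lower, by 13.1% in the fit (interval from −20.1% to −5.50%), but the difference did not pass the test over all genes (log2 fold change −0.20 ± 0.05, SE, limma adjusted p = 0.0911). The second row with this symbol (ENSMUSG00000116429, from 127290829 to 127293753) is an overlapping gene model with 102 coding bases. It had 143 to 221 fragments per library, which could have been divided between the models, and its groups overlapped (log2 fold change −0.09, adjusted p = 0.795 from limma).

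Atf5, a relative of Atf4 under the same translational control, went the other way from Ddit3. It was at 59.6, 60.7 and 57.8 FPKM against 74.9, 65.8 and 68.9, a log2 fold change of 0.23 ± 0.05 (SE, limma adjusted p = 0.0636), and an interval from 7.86% to 28.1%. It passed the threshold in 1 of the 16 alternative fits, limma's voom on the recovered fragments (adjusted p = 0.0437). In the others the limma adjusted p reached 0.167 with all libraries and 0.206 without LPS replicate 3. Cebpb, a C/EBP factor that also answers to inflammation, was at 91.8, 84.3 and 95.02 FPKM against 96.5, 80.9 and 78.1 and had overlapping groups.

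Nupr1, a small chromatin-associated stress protein, showed the widest difference of the 32 genes. It lies on the minus strand of chromosome 7 in GRCm38, between 126623249 and 126630861, and the RefSeq start used for its promoter falls inside this span. Nupr1 was at 286.1, 347.0 and 320.5 FPKM in the LPS-labelled libraries and 478.2, 474.8 and 478.0 in the LPSKD-labelled ones. The latter were within 4 FPKM of each other and far above the highest LPS library. The means were 317.9 ± 30.5 and 477.0 ± 1.91 FPKM (SD, n = 3 each), and the fitted rise on log2(FPKM + 0.1) was 50.5% with an interval from 36.3% to 66.2% (log2 fold change 0.59 ± 0.06, SE, limma adjusted p = 0.00186). It passed in all 16 alternative fits, and with 1 library left out the log2 fold change lay between 0.52 and 0.66.

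The feedback regulators of the branch did not move together. Ppp1r15a (GADD34), which returns eIF2 to its unphosphorylated state, lies on chromosome 7 from 45522916 to 45526268. It was at 165.4, 161.6 and 160.4 FPKM in the LPS-labelled libraries and at 138.5, 138.3 and 139.4 in the LPSKD-labelled ones, with a gap between the groups far wider than the spread within them. It fell by 14.6% (interval from −18.8% to −10.1%), a log2 fold change of −0.23 ± 0.03 (SE, limma adjusted p = 0.0077). Its call was lost in 1 of the 16 alternative fits, that without the trend of the variance (adjusted p = 0.0669), and it passed with each library left out. Trib3, a pseudokinase that dampens Atf4 and Ddit3 signalling, was at 184.1, 180.7 and 181.3 FPKM against 198.5, 188.5 and 184.2, groups that were apart by less than 1 FPKM (adjusted p = 0.422 from limma).

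Of the metabolic and redox targets, Asns and Sesn2 had groups apart in opposite directions. Asns, which makes asparagine, was at 280.6, 293.1 and 288.7 FPKM against 315.4, 308.6 and 298.1, a log2 fold change of 0.10 ± 0.04 (SE, limma adjusted p = 0.210). Sesn2, a leucine-binding inhibitor of mTORC1, was at 52.2, 49.1 and 49.5 FPKM against 45.2, 41.0 and 45.2, a log2 fold change of −0.20 ± 0.05 (SE, limma adjusted p = 0.104). Chac1, which degrades glutathione, was at 94.1 ± 4.86 and 92.2 ± 2.10 FPKM (SD, n = 3 each) with overlapping groups. The 4 branch genes with a CARE match thus had log2 fold changes of 0.59 (Nupr1), 0.10 (Asns), 0.06 (Trib3) and −0.03 (Chac1), and Herpud1, the fifth with that match, had −0.23.

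**Figure D3:**
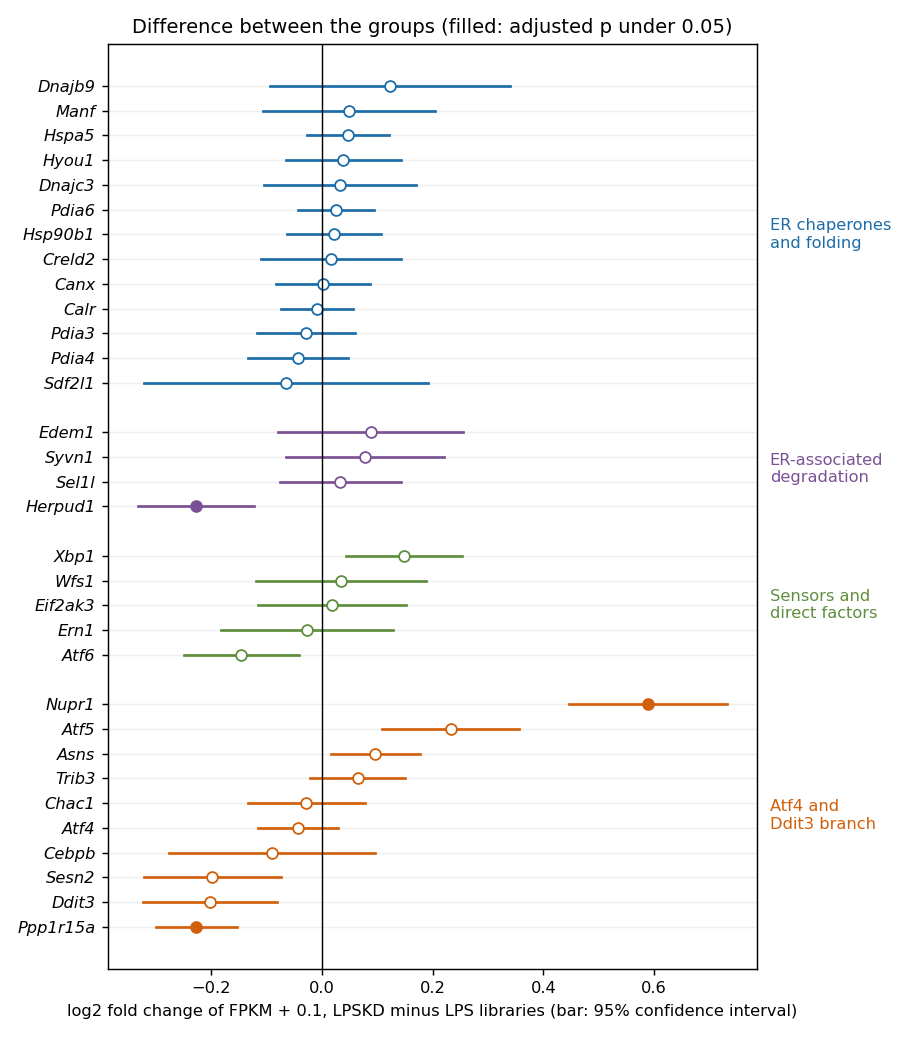
Log2 fold change of FPKM + 0.1 for each of the 32 genes, as LPSKD minus LPS, with bars for the 95% confidence interval from limma and filled points for an adjusted p under 0.05. The 13 chaperones lie between −0.07 and 0.12 with intervals that include 0, and the 10 branch genes run from −0.23 (Ppp1r15a) to 0.59 (Nupr1).

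**Figure D4:**
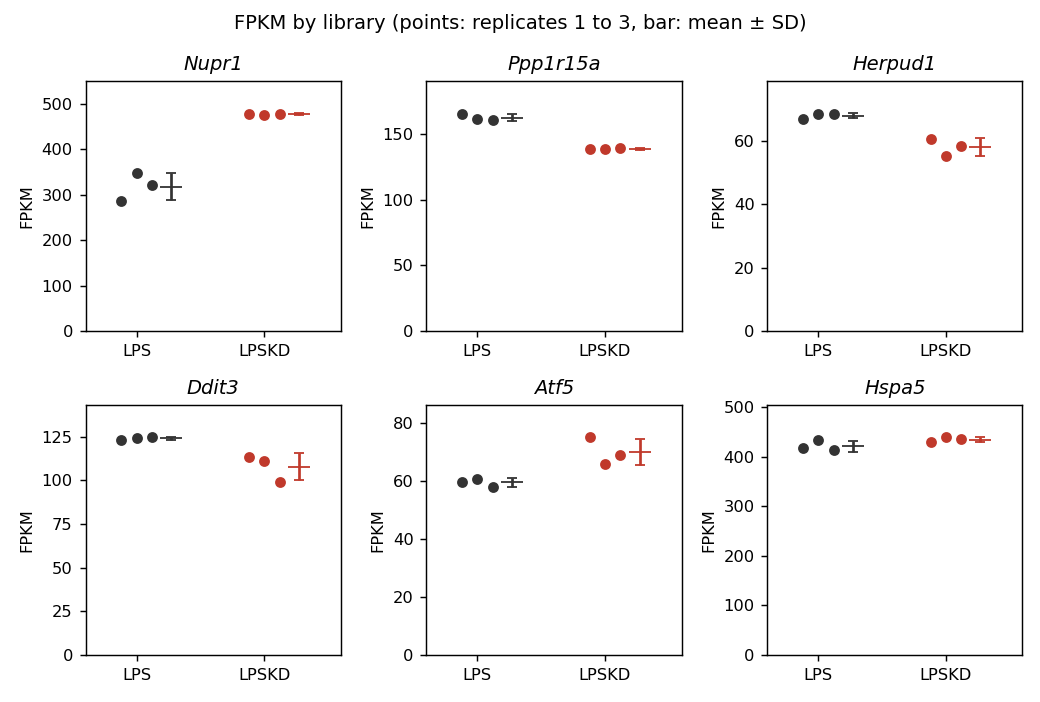
FPKM by library for 6 genes on linear axes that start at 0, with points for replicates 1 to 3 and a bar for the mean ± SD of each group (n = 3). Nupr1 and Atf5 are higher, and Ppp1r15a, Herpud1 and Ddit3 lower, in every LPSKD-labelled library than in any LPS-labelled one, and the Hspa5 points overlap, with adjusted p under 0.05 for Nupr1, Ppp1r15a and Herpud1.

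Related genes are given beside the members, from lists drawn up with earlier results of these data known. Of 21 other ER folding genes tested, 17 genes of ER translocation and 15 other ER-associated degradation genes, 0 passed in limma (4, 2 and 2 at an unadjusted p under 0.05), and the medians of their log2 fold changes were −0.00, −0.03 and −0.00. Over all genes tested, 3.23% passed and 17.6% had an unadjusted p under 0.05, so that 0 calls in lists this short are near that share. The ER lists thus lay near the median of all genes tested, as the chaperones did. Around Atf4, 0 of 9 other Atf4-linked factors and 0 of 20 cytosolic aminoacyl-tRNA synthetases passed (3 and 4 at an unadjusted p under 0.05). Among 9 amino acid transporters, Slc7a11, the cystine importer, was higher in the LPSKD-labelled libraries (31.0, 33.9 and 34.6 FPKM against 40.9, 38.9 and 41.7, adjusted p = 0.0372 from limma). Among 10 enzymes of amino acid and one-carbon synthesis, Pycr1 of proline synthesis was higher (40.4, 38.9 and 39.3 FPKM against 44.4, 46.4 and 48.0, adjusted p = 0.0434 from limma). Neither passed with any 1 library left out (adjusted p from 0.0597 to 0.141 and from 0.0551 to 0.158).

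Of the 11 genes of the eIF2 kinases and the eIF2 core, Eif2ak2 (PKR), the eIF2 kinase that senses double-stranded RNA, was lower. It was at 38.6, 38.3 and 41.3 FPKM in the LPS-labelled libraries and at 20.9, 26.5 and 23.7 in the LPSKD-labelled ones, a log2 fold change of −0.74 ± 0.09 (SE, limma adjusted p = 0.00302). The other 10, Eif2ak1 and Eif2ak4 among them, did not pass, and 3.23% of all genes tested did.

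The cytosolic heat shock genes, which answer to misfolded protein outside the ER, had a higher median log2 fold change than the ER chaperones. This difference between lists was not tested. Of 11 tested, 3 were higher in the LPSKD-labelled libraries and 0 lower, against 1.57% and 1.66% of all genes tested. The median log2 fold change of the 11 was 0.14, and this list too was drawn up with earlier results of these data known. The small heat shock gene Hspb1 went from 710.7 ± 14.6 to 884.4 ± 28.4 FPKM (SD, n = 3 each, log2 fold change 0.32, adjusted p = 0.00256 from limma). Hsph1, an Hsp110-type exchange factor of the cytosol, went from 108.3 ± 1.16 to 130.5 ± 2.80 FPKM (SD, n = 3 each, log2 fold change 0.27, adjusted p = 0.00497 from limma). Hspa1b, an inducible Hsp70, went from 5.35 ± 0.517 to 9.13 ± 0.307 FPKM (SD, n = 3 each, log2 fold change 0.76, adjusted p = 0.00602 from limma), but it has a near-identical copy in Hspa1a, so that its own value is uncertain. These 3 genes and Eif2ak2 passed with any 1 library left out. In the 10 alternative fits with all libraries, Hsph1 passed in 9 (highest limma adjusted p = 0.0515). Hspb1 (highest limma adjusted p = 0.0481), Hspa1b and Eif2ak2 passed in all 10. The mean deviation of the 11 genes was −0.01, −0.01 and 0.03 in the LPS-labelled libraries and 0.19, 0.18 and 0.14 on the log2 scale in the others. The 8 mitochondrial chaperones and proteases had a median of −0.05. Of these, 0 passed in limma (0 at an unadjusted p under 0.05), against 3.23% (17.6%) of all genes tested.

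**Figure D5:**
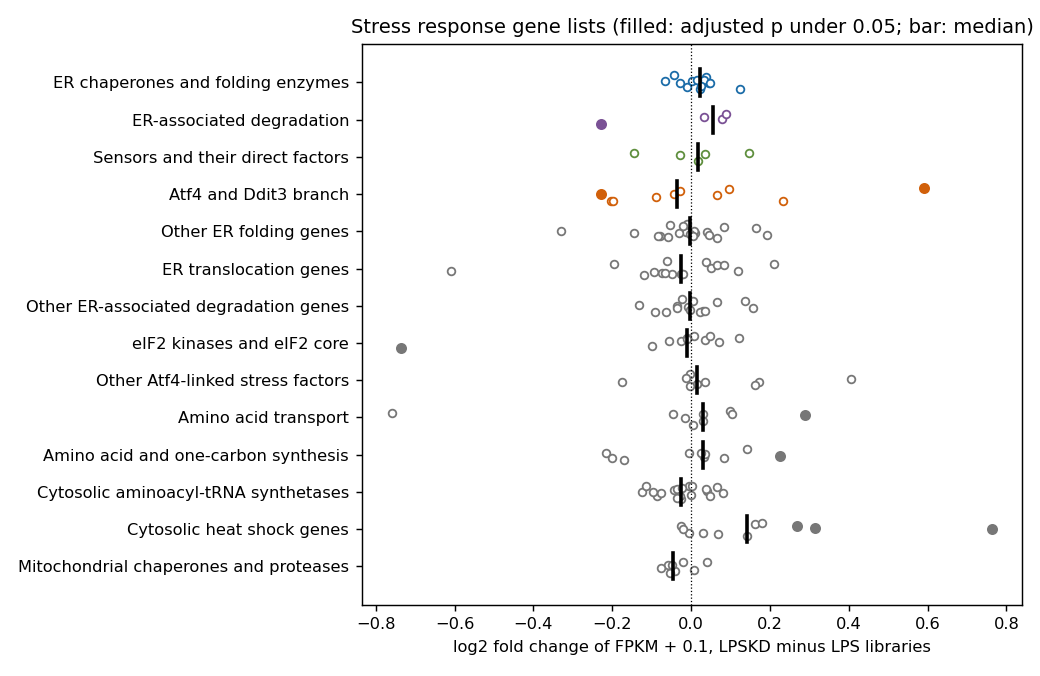
Log2 fold change of FPKM + 0.1, LPSKD minus LPS, for each tested gene of the 4 member lists (coloured) and 10 related lists (grey), with filled points for an adjusted p under 0.05 and a vertical bar for each list's median. Medians of the 4 member lists lie between −0.04 and 0.06, and that of the cytosolic heat shock genes is 0.14.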

How the data were processed

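The authors deposited FPKM values, 1 per gene and library, for 6 poly(A) RNA libraries read as paired ends. The submitters' processing notes name Bowtie 0.12.2, HISAT2 2.0 and StringTie 1.3.0 and the builds mm8 and GRCh38.p13, without saying which was used for these values. Values of 16460 of 16837 genes above 0 (97.8%) were whole fragments, within 0.02. This held at the merged coding length of GENCODE M21 (GRCm38) plus up to 10 bases, so that reads outside coding sequence may not be counted. With totals raised by 0.1%, 0.91% of genes over 500 fragments were whole. That check tried only the coding length with no bases added, so that its share is not matched to the 97.8%. Xbp1 was whole only at another length. Intervals cover the spread between libraries. Of 22442 identifiers, 22399 matched a symbol.

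Log2(FPKM + 0.1) was fitted with limma 3.58.1 (R 4.3.3, eBayes with trend, no covariates) keeping genes whose mean FPKM reached 0.5, with Benjamini-Hochberg adjustment at 0.05 over all genes tested. Fold changes on this scale understate low genes. All members are named, and from other lists at most the 3 widest changes with an adjusted p under 0.05, plus Krt18, Csf1r and Aqp1 by the same rule. The markers Ptprc, Lyz2, Cd68 and Cubn are named for their levels. The members and lists were chosen with earlier results of these data known. Libraries of the same group were further apart than sampling noise (chi-square per gene from 4.06 to 10.4) and each counted as a replicate. The scripts were tested on simulated data. Alternatives were other pseudocounts (1 and 0.01), filters (1, 0.1, none), scalings, eBayes with no trend, a replicate block, voom on recovered fragments, and each library left out. Promoters are from RefSeq (GRCm38.p6), and the start matched the RefSeq gene table in 27 of 30 windows. Python 3.11.15, pandas 2.3.3, numpy 2.4.6 and matplotlib 3.10.9 were used for tables and plots. Some processed data of the study, such as its ChIP-seq, were not analysed here.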

Additional observations from a re-analysis of the deposited data

How the results depend on the processing

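Of the 3 genes past the threshold, Nupr1 passed in all 16 alternative fits, Ppp1r15a in 15 and Herpud1 in 7. The number of the 32 genes called was 1 without the trend in eBayes, 2 without a filter, with the replicate block and with any library left out, 4 with voom and 3 in the others. Over all genes tested, 379 became 140 without the trend, 581 with voom, 213 with the replicate block, and 158 to 357 with 1 library left out, which was smallest when LPS replicate 3 was omitted. No pair of same-numbered libraries deviated together (correlations −0.0160, −0.00388 and −0.0426), so that no effect shared by a replicate number was visible. Whether same-numbered samples were handled as pairs cannot be told from these values. With the replicate block, 2 of the 32 genes were called, and Herpud1 was not among them (limma adjusted p = 0.0911). Quantile normalization moved the median of the Atf4 and Ddit3 branch from −0.0360 to −0.0741 and turned the sign of Hspa5 (−0.00129), Hsp90b1 (−0.0365), Canx (−0.0407) and Pdia6 (−0.00314), and the cause was not tested. With each library left out, values that changed sign ranged from −0.0641 to 0.0444 for Stat3, −0.0103 to 0.0491 for Hsp90b1, −0.00671 to 0.0622 for Dnajc3, −0.0289 to 0.0305 for Canx, −0.0359 to 0.0918 for Manf, −0.00162 to 0.0675 for Hyou1, −0.0518 to 0.00653 for Pdia3, −0.0184 to 0.0641 for Wfs1, −0.0500 to 0.0137 for Chac1, −0.192 to 0.0149 for Sdf2l1, −0.00512 to 0.0464 for Eif2ak3 and −0.0215 to 0.0473 for Creld2. None of these genes passed the limma test in any of these fits. Depth limits the least abundant members most, such as Sdf2l1 with 190 to 249 fragments per library.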
